A study of Homo sapiens with 28 samples.

Results

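The response of HT-1080 cells to RSL3 was compared with and without CLA18:2, in a 2 by 2 of 16 of the 28 libraries of the series. HT-1080 is a human fibrosarcoma line, wild type in genotype here, and all libraries come from this 1 line. The 4 groups, each of 4 libraries, were cells given 10 nM RSL3 together with 80 µM CLA18:2, cells given 80 µM CLA18:2, cells given 10 nM RSL3, and cells given the DMSO vehicle, all overnight. CLA18:2 is a conjugated linoleic acid, in which a single bond lies between the double bonds. The sample labels write its dose in mM and the series text in µM, and µM is used here. The series text calls the replicates independent, and the p-values measure only the spread between these samples. The CLA18:2 libraries carry sample numbers in a block apart from those of the other groups of the 2 by 2. Such numbering does not show a batch. A shift particular to those libraries would enter the interaction, and cannot be told apart from the CLA18:2 response.

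The interaction of a gene is its log2 fold change in RSL3+CLA18:2 against CLA18:2, minus its log2 fold change in RSL3 against DMSO. It is 0 where the folds of the 2 agents multiply, positive where cells given both hold more RNA of the gene than that product, and negative where they hold less. The same number is also the CLA18:2 response with RSL3 minus the CLA18:2 response without it. All 16325 genes that passed a filter on low counts in the 7 groups of the series, of 60286 listed, were tested. No other measured value chose them.

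RSL3 inhibits GPX4, the selenoprotein that reduces lipid hydroperoxides in membranes, and so brings on ferroptosis, in which oxidised membrane lipids kill the cell. HT-1080 cells are a common model of it. Cells under oxidant or electrophile stress switch on NRF2, whose targets supply glutathione, NADPH, iron storage and aldehyde reduction. Damage to proteins and a lack of amino acids act through the integrated stress response and the unfolded protein response of the endoplasmic reticulum (ER). Kinase signals switch on the immediate early genes, among them the FOS and JUN subunits of the transcription factor AP-1. In each of these programmes the interaction shows whether RSL3 acted on cells given CLA18:2 as it did on cells given vehicle.

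Library totals ran from 16226270 to 23075684 counts. The first principal component, with 55.9% of the variance, set the 8 libraries with CLA18:2 apart from the 8 without. Of the 13 mesenchymal markers all 13 were tested, against 4 of 16 epithelial, 1 of 14 blood cell and 0 of 12 hepatocyte and kidney markers. EPCAM and CDH1 of epithelium, PTPRC of blood cells and ALB of hepatocytes had at most 2 counts in any library. The 4 tested epithelial markers had more, with 26 to 129 counts of KRT7, 33 to 83 of CLDN4, 12 to 66 of KRT14 and 0 to 41 of ESRP2. Among the mesenchymal markers, THY1 with 2 to 18 counts and S100A4 with 8 to 29 were also low. Genes detected at a common total of 16226270 counts numbered 19010 to 21299 in RSL3+CLA18:2 libraries, 21529 to 22199 in CLA18:2 libraries, 22021 to 22547 in RSL3 libraries and 22702 to 22890 in DMSO libraries. The biological coefficient of variation was 15.1% in RSL3+CLA18:2, 8.90% in CLA18:2, 7.79% in RSL3 and 4.52% in DMSO. Mitochondrially encoded mRNA took 0.263% to 1.68% of counts in RSL3+CLA18:2 libraries, 0.312% to 1.48% in CLA18:2 libraries, 0.548% to 1.5% in RSL3 libraries and 1.26% to 1.49% in DMSO libraries. The part of detected genes and mitochondrial share in the results was not tested beyond the values without the 2 libraries of fewest detected genes and with that share as a covariate, given below.

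The interaction was positive in 286 genes, 1.75% of those tested, and negative in 294, 1.80%, together 580 or 3.55%, at an adjusted p under 0.05 in edgeR's quasi-likelihood test. At an unadjusted p under 0.05 there were 2496. Most of these differences were small, with a median of 0.34 in the positive genes and -0.39 in the negative genes, and only 9 and 24 of them reached 2-fold. Without RSL3+CLA18:2 replicates 3 and 4, which had the fewest detected genes, 264 and 246 genes passed, and with the mitochondrial share as a covariate 334 and 399. Leaving out CLA18:2 replicate 1 gave 193 negative genes. Of the 286 positive and 294 negative genes, 145 and 153 passed in each of the 16 fits that left out 1 library.

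RSL3 changed far more genes in cells given CLA18:2 than in cells given vehicle. In RSL3+CLA18:2 against CLA18:2, 1086 genes were higher, 6.65% of those tested, and 856 were lower, 5.24%. In RSL3 against DMSO, 29 genes were higher, 0.178%, and 4 were lower, 0.0245%. The count for RSL3 against DMSO rests on the method. It was 33 genes in all here, against 112 with no filter on low counts, 67 by DESeq2 and 147 by voom. For RSL3+CLA18:2 against CLA18:2 it was 1942 here, against 1825 with no filter, 2246 by DESeq2 and 1553 by voom. The gap between the 2 responses was thus smaller by voom. These 2 responses share no library, and only the first uses the separately numbered CLA18:2 libraries. Across the 11932 genes with a mean of at least 2 CPM, which are counts scaled by library total, their log2 fold changes had a standard deviation of 0.231 with CLA18:2 and 0.154 without, and a Pearson r of 0.115, given as a description across genes, which are not independent.

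The positive genes were higher in RSL3+CLA18:2 than in CLA18:2, and moved little in RSL3 against DMSO. All 286 had a log2 fold change above 0 in RSL3+CLA18:2 against CLA18:2, with a median of 0.34, and 277 passed that test. In RSL3 against DMSO their median was 0.00, with 144 above 0 and 142 below. The median of their CLA18:2 response against DMSO was -0.50. So the typical gene of this kind was low in cells given CLA18:2 and less low in cells given both.

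The negative genes went the other way with CLA18:2, and unlike the positive genes most of them were slightly higher in RSL3 than in DMSO. Of the 294, 291 lay below 0 in RSL3+CLA18:2 against CLA18:2, with a median of -0.30, and 245 passed that test. In RSL3 against DMSO their median was 0.11, with 264 above 0 and 17 past the test as higher. Their median in CLA18:2 against DMSO was 0.74. Since each of these responses shares libraries with the interaction that chose the genes, these values describe the genes and test nothing further.

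**Figure D1:**
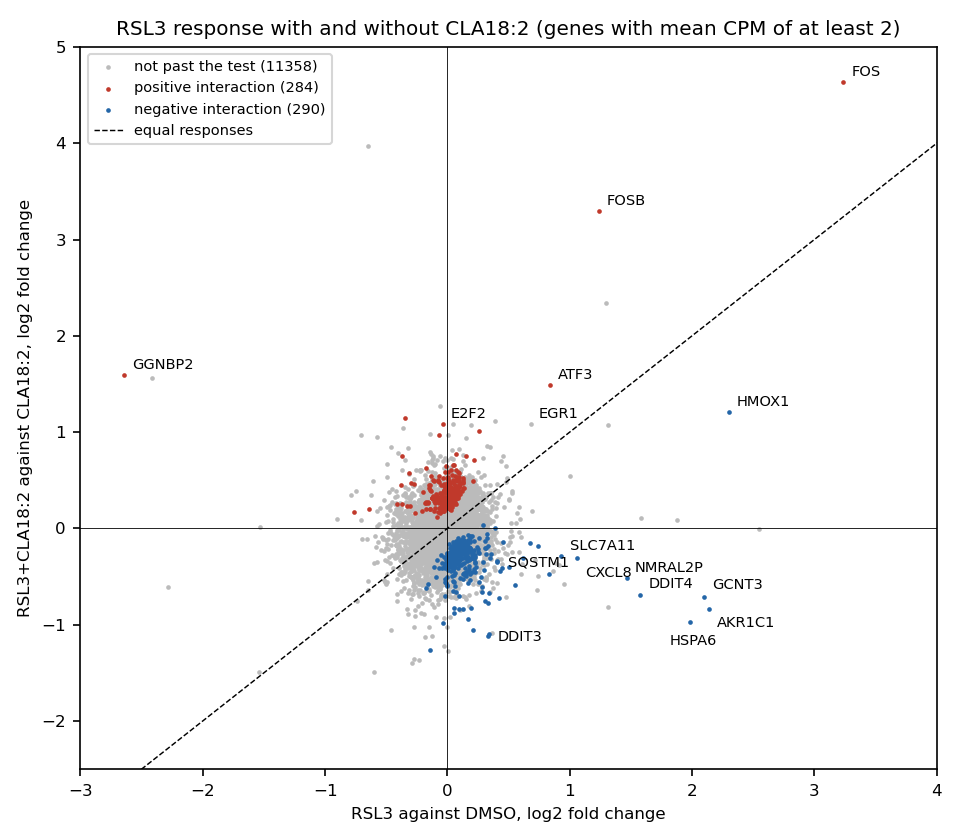
Log2 fold change in RSL3+CLA18:2 against CLA18:2 (vertical) and in RSL3 against DMSO (horizontal) for the 11932 genes with a mean CPM of at least 2, of which 284 had a positive and 290 a negative interaction. The vertical distance from the dashed line is the interaction, positive above the line and negative below it. FOSB and FOS lie above the dashed line, while HSPA6, AKR1C1, GCNT3 and DDIT4 lie below the horizontal zero line and right of the vertical one.

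Several immediate early genes had a positive interaction, and of the positive genes described here FOSB had the smallest adjusted p. FOSB, an AP-1 subunit, had 39.1, 34.6, 36.6 and 44.1 CPM in RSL3+CLA18:2 libraries, against 3.15, 3.50, 4.54 and 4.60 CPM in CLA18:2 libraries. In the libraries without the fatty acid it had 7.22, 6.82, 5.97 and 5.20 CPM in RSL3, against 2.63, 2.59, 2.97 and 2.46 CPM in DMSO. None of the 4 groups overlapped, and the libraries with both agents stood far above the rest. The log2 fold change was 3.30 ± 0.15 in RSL3+CLA18:2 against CLA18:2 and 1.24 ± 0.17 in RSL3 against DMSO. The interaction of FOSB was 2.06 ± 0.22 (SE, n = 4 per group, adjusted p = 2.5e-07), and it ran from 1.97 to 2.15 over the 24 alternatives.

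FOS, the partner of JUN in AP-1, had 59.7, 60.2, 67.4 and 62.4 CPM in RSL3+CLA18:2 libraries, against 2.44, 2.74, 2.70 and 2.14 CPM in CLA18:2 libraries. It had 4.43, 4.83, 3.25 and 6.07 CPM in RSL3 libraries, against 0.631, 0.509, 0.602 and 0.167 CPM in DMSO libraries. The groups did not overlap, and the RSL3 response was large both with CLA18:2 (4.64 ± 0.18) and without it (3.23 ± 0.27). The interaction of FOS was 1.40 ± 0.39 with an adjusted p of 0.036, and it missed the threshold in 7 of the 16 fits without 1 library, by voom, and without RSL3+CLA18:2 replicates 3 and 4 (adjusted p = 0.0586). The small counts in DMSO libraries make its fold there rough.

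ATF3, a stress-induced factor that pairs with AP-1 subunits, averaged 58.2 CPM in RSL3+CLA18:2 and 20.7 CPM in CLA18:2, and 29.5 CPM in RSL3 and 16.5 CPM in DMSO. Its interaction was 0.65 ± 0.12 (adjusted p = 8.8e-04). EGR1, an immediate early zinc finger factor, had 25.1 to 29.5 CPM in RSL3+CLA18:2 libraries, against 10.2 to 14.7 CPM in CLA18:2 libraries, and 3.82 to 5.26 CPM in RSL3 libraries, against 2.36 to 3.05 CPM in DMSO libraries. Both of its RSL3 responses passed the test, at 1.09 ± 0.12 with CLA18:2 and 0.68 ± 0.15 without, but its interaction of 0.40 ± 0.19 did not (adjusted p = 0.31).

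Of 34 tested immediate early and AP-1 genes, 7 had a positive and 2 a negative interaction, against 1.75% and 1.80% of all genes tested. The median was 0.15, against -0.01 over all genes tested. CCN1, a secreted matricellular protein, was among the 7 at 0.33 ± 0.07. It had 763 to 841 CPM in RSL3+CLA18:2 libraries, against 643 to 685 CPM in CLA18:2 libraries. Its RSL3 libraries had 1099 to 1143 CPM and its DMSO libraries 1148 to 1207 CPM. Unlike FOS and FOSB, CCN1 thus stayed below vehicle in cells given both agents. The 2 negative genes were SPRY4, a Sprouty inhibitor of kinase signalling, at -0.53 ± 0.10 and PHLDA1 at -0.31 ± 0.08, named because they are so few. The count of 7 fell to 3 without DMSO replicate 2, and to 4 without DMSO replicate 1, DMSO replicate 3, RSL3 replicate 3 or CLA18:2 replicate 1.

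**Figure D2:**
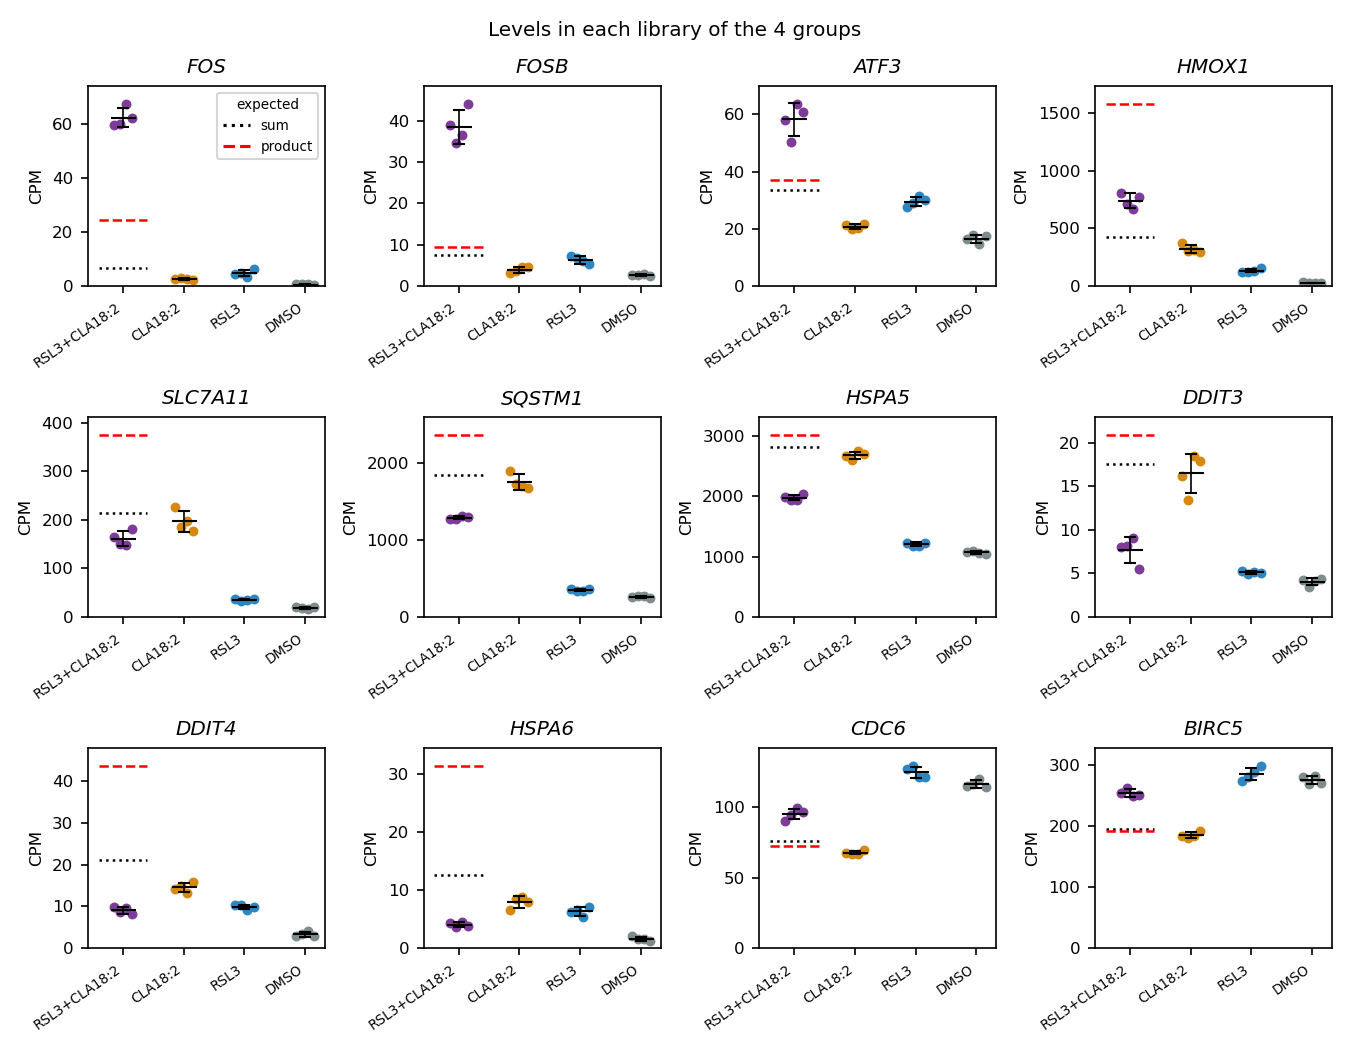
CPM in each library (points) with the group mean and SD (bars) for 12 genes, with RSL3+CLA18:2, CLA18:2, RSL3 and DMSO from left to right. Dotted and dashed lines mark the level in RSL3+CLA18:2 if the amounts or the folds of the single agents combined: FOS, FOSB, ATF3, CDC6 and BIRC5 lie above both lines, SLC7A11, SQSTM1, HSPA5, DDIT3, DDIT4 and HSPA6 below both, and HMOX1 between them.

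For the genes with the smallest p each way among the largest interactions, the 250 bases before the RefSeq start on GRCh38.p14 were read, to show the DNA in front of genes that differ most in their response. They are FOSB (chr19:45467746-45467995, plus strand), E2F2 (chr1:23531234-23531483, minus strand), HSPA6 (chr1:161524290-161524539, plus strand) and DDIT4 (chr10:72273674-72273923, plus strand), each printed 5′ to 3′ on the strand of its gene. Capitals mark matches to 5 motifs searched on both strands.
FOSB: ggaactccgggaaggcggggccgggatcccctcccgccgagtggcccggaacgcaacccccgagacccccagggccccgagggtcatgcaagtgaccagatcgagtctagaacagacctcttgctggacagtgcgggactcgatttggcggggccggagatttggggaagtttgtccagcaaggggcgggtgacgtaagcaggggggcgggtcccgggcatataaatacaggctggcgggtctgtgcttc
E2F2: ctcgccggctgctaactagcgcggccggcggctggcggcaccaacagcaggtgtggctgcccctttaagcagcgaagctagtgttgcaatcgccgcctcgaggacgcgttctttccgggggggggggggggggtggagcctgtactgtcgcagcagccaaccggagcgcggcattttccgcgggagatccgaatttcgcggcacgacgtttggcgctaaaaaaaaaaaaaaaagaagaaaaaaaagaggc
HSPA6: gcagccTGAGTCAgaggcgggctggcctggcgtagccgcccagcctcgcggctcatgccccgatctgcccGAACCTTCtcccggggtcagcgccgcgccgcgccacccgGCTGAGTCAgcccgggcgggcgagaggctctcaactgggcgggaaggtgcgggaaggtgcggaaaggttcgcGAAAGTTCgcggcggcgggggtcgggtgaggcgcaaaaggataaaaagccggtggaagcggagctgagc
DDIT4: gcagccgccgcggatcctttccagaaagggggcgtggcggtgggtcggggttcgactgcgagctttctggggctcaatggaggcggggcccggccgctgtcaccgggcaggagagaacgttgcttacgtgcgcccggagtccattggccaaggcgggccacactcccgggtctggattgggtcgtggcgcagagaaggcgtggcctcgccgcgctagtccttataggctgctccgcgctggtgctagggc
The motifs were TGACNNNGC of the antioxidant response element, TGANTCA of AP-1, TGACGTCA of the cyclic AMP response element, TTGCATCA of the ATF4 composite site and GAANNTTC of heat shock elements. They occurred in 10.9%, 6.57%, 1.65%, 0.772% and 5.78% of 35116 RefSeq promoter windows of this length. HSPA6 held TGANTCA at -244 and -139 from its start, GAANNTTC at -180 and -69, and TGACNNNGC on the other strand at -141, where it overlaps the second TGANTCA. The other 3 windows held no match. A match describes the letters, and no binding was measured.

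By their medians, genes of cell division were lower in CLA18:2 than in DMSO, and higher in RSL3+CLA18:2 than in CLA18:2. Of 36 tested mitotic genes, 24 had a positive interaction, against 1.75% of all genes tested, and none a negative one. Of 41 tested DNA replication and nucleotide supply genes, 23 had a positive interaction and none a negative one. The median interactions of these lists were 0.31 and 0.30. All 36 and all 41 lay above 0, against 7950 of all 16325 genes. The medians of RSL3+CLA18:2 against CLA18:2 were 0.38 and 0.35, those of RSL3 against DMSO 0.06 and 0.06, and those of CLA18:2 against DMSO -0.50 and -0.48. Without RSL3+CLA18:2 replicates 3 and 4 the mitotic count was 15. In bulk RNA, fewer cells of a kind and less RNA in each cell cannot be told apart.

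CDC6, which loads the replicative helicase, had 90.5, 94.4, 99.4 and 96.7 CPM in RSL3+CLA18:2 libraries, against 67.8, 67.0, 67.1 and 69.5 CPM in CLA18:2 libraries. It had 127, 129, 122 and 121 CPM in RSL3 libraries, against 115, 117, 120 and 115 CPM in DMSO libraries. Cells given both agents thus lay between those given CLA18:2 and those given vehicle, with no overlap. The interaction of CDC6 was 0.39 ± 0.06 (adjusted p = 8.8e-05).

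BIRC5, the chromosomal passenger survivin, had 254, 263, 249 and 252 CPM in RSL3+CLA18:2 libraries, against 184, 180, 183 and 192 CPM in CLA18:2 libraries. Its RSL3 libraries, at 274 to 298 CPM, overlapped its DMSO libraries, at 269 to 282 CPM. The interaction of BIRC5 was 0.41 ± 0.06 (adjusted p = 7.4e-05). RRM2, the ribonucleotide reductase subunit that supplies deoxynucleotides, had 0.42 ± 0.06 and FEN1, the flap endonuclease, 0.34 ± 0.05. PTTG1, securin, had 0.43 ± 0.08 and CCNA2, cyclin A2, 0.38 ± 0.07. All of these were positive in each of the 16 fits without 1 library. PTTG1 had 93.4 to 104 CPM in RSL3+CLA18:2 libraries, above its DMSO libraries at 81.9 to 92.7 CPM.

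E2F2, a transcription factor of the G1 to S transition, moved most in this group. It had 5.64, 7.60, 6.27 and 10.1 CPM in RSL3+CLA18:2 libraries, against 3.96, 2.88, 3.68 and 3.51 CPM in CLA18:2 libraries. The libraries without CLA18:2 overlapped, at 10.4 to 11.4 CPM in RSL3 and 9.25 to 12.7 CPM in DMSO. The interaction of E2F2 was 1.12 ± 0.24 (adjusted p = 0.0057).

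Targets of TGF-beta, YAP and actin signalling were positive in part, with a median of 0.11. Of 30 tested, 9 were positive and 1 negative, against 1.75% and 1.80% of all genes. Their medians were 0.12 in RSL3+CLA18:2 against CLA18:2, -0.01 in RSL3 against DMSO and -0.39 in CLA18:2 against DMSO. TPM1, a tropomyosin of the actin filament, had 1116 to 1176 CPM in RSL3+CLA18:2 libraries, against 945 to 985 CPM in CLA18:2 libraries. It had 1490 to 1539 CPM in RSL3 libraries, against 1533 to 1604 CPM in DMSO libraries. The interaction of TPM1 was 0.30 ± 0.05 (adjusted p = 5.0e-04). AMOTL2, a YAP target and angiomotin family scaffold, had 0.37 ± 0.07. It had 276 to 314 CPM in RSL3+CLA18:2 libraries, against 230 to 240 CPM in CLA18:2 libraries. Its RSL3 libraries had 360 to 379 CPM and its DMSO libraries 383 to 391 CPM. TPM1 and AMOTL2 thus stayed below vehicle in cells given both agents. The negative gene was SMAD3, a TGF-beta signal transducer, at -0.29 ± 0.08. CNN1, the actin-binding calponin, had 0.93 ± 0.27, but missed the threshold in 13 of the 16 fits without 1 library.

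NRF2 targets gave the opposite sign. Of 33 tested, 15 had a negative interaction, against 1.80% of all genes tested, and none a positive one. The median interaction of these targets was -0.24. Their medians were -0.12 in RSL3+CLA18:2 against CLA18:2, 0.16 in RSL3 against DMSO and 1.26 in CLA18:2 against DMSO, the last of which shares libraries with both others. RSL3 thus went with higher levels in vehicle and with somewhat lower ones on top of the much larger CLA18:2 response. Without RSL3+CLA18:2 replicates 3 and 4 the count was 9.

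SLC7A11, the cystine carrier of the cystine and glutamate exchanger that feeds glutathione synthesis, had 166, 151, 148 and 181 CPM in RSL3+CLA18:2 libraries, against 226, 186, 198 and 178 CPM in CLA18:2 libraries. It had 36.4, 33.7, 35 and 37.3 CPM in RSL3 libraries, against 19.4, 18.3, 16.8 and 20.3 CPM in DMSO libraries. The libraries with CLA18:2 overlapped between the groups with and without RSL3, while those without CLA18:2 did not. Both responses passed the test with opposite signs, at -0.29 ± 0.08 with CLA18:2 and 0.93 ± 0.10 without. The interaction of SLC7A11 was -1.22 ± 0.13 (adjusted p = 9.8e-08), and ran from -1.28 to -1.14 over the alternatives. SLC3A2, the heavy chain that partners it in the membrane, had -0.40 ± 0.08.

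SQSTM1, the autophagy receptor p62, had 1278, 1277, 1313 and 1305 CPM in RSL3+CLA18:2 libraries, against 1904, 1728, 1708 and 1677 CPM in CLA18:2 libraries. It had 359, 343, 342 and 359 CPM in RSL3 libraries, against 260, 270, 267 and 243 CPM in DMSO libraries. Neither pair of groups overlapped, and the pairs differed in opposite directions. The interaction of SQSTM1 was -0.87 ± 0.07 (adjusted p = 7.3e-10).

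FTL, the light chain of the iron store ferritin, had 1569 to 1598 CPM in RSL3+CLA18:2 libraries, against 1886 to 2182 CPM in CLA18:2 libraries, and 697 to 824 CPM in RSL3 libraries, against 564 to 588 CPM in DMSO libraries. Its interaction was -0.65 ± 0.06 (adjusted p = 5.2e-08). The heavy chain gene FTH1 had -0.39 ± 0.11 and missed the threshold in 5 of the 16 fits without 1 library and without RSL3+CLA18:2 replicates 3 and 4 (adjusted p = 0.119). TXNRD1, thioredoxin reductase, had -0.43 ± 0.06, and OSGIN1, an oxidative stress-induced growth inhibitor, -0.82 ± 0.12.

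HMOX1, the heme oxygenase that releases iron from heme, was the exception among the negative genes. It had 811, 714, 672 and 771 CPM in RSL3+CLA18:2 libraries, against 375, 303, 314 and 291 CPM in CLA18:2 libraries, and 124, 125, 126 and 156 CPM in RSL3 libraries, against 29.8, 26.4, 27.2 and 24.4 CPM in DMSO libraries. It was higher with RSL3 both in the presence of CLA18:2 (1.21 ± 0.10) and in its absence (2.30 ± 0.11). The interaction of HMOX1 was -1.09 ± 0.14 (adjusted p = 1.3e-05), so the folds fell short of their product of 1580 CPM. Yet the mean of 742 CPM lay above the 427 CPM that adding the 2 single changes to the DMSO level gives, by 315 ± 36.7 CPM (SE, with no test).

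The aldo-keto reductase AKR1C1, which reduces lipid aldehydes and steroids, had 4.60, 4.47, 5.45 and 5.18 CPM in RSL3+CLA18:2 libraries, against 8.69, 8.18, 9.81 and 8.55 CPM in CLA18:2 libraries. It had 0.667, 1.90, 0.995 and 0.976 CPM in RSL3 libraries, against 0.368, 0.185, 0.215 and 0.279 CPM in DMSO libraries. Neither pair overlapped, and the interaction of AKR1C1 was -2.97 ± 0.44 (adjusted p = 7.6e-05). Its relative AKR1C3 had -1.30 ± 0.33, and missed the threshold without DMSO replicate 2 (adjusted p = 0.0654). DESeq2 gave neither gene an adjusted p. These paralogs are close in sequence, so that reads could be split between them, and the low DMSO counts leave their folds rough. The pseudogene NMRAL2P, at 12.7 to 16.1 CPM in RSL3+CLA18:2 libraries against 19.2 to 22.9 CPM in CLA18:2 libraries, had -1.98 ± 0.28. It had 1.35 to 2.49 CPM in RSL3 libraries, against 0.516 to 0.781 CPM in DMSO libraries.

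Not every NRF2 target passed. GCLM, the modifier subunit of the first enzyme of glutathione synthesis, was higher with RSL3 both in the presence of CLA18:2 (0.27 ± 0.06) and in its absence (0.39 ± 0.07), and its interaction was -0.11 ± 0.09 (adjusted p = 0.63). NQO1, a quinone reductase, had -0.26 ± 0.09 (adjusted p = 0.084). NQO1 did pass by DESeq2 (adjusted p = 0.0381), by voom (0.0484), without DMSO replicate 1 (0.0229) and without RSL3+CLA18:2 replicate 1 (0.0359). AKR1B10, another aldehyde reductase, had -1.24 ± 0.46 (adjusted p = 0.14). Among 25 iron and heme genes 5 were negative, among 23 glutathione genes 3, and among 19 aldehyde and electrophile detoxification genes 3. The negative share over all genes tested was 1.80%. None was positive in these lists, which share members with the NRF2 list. By DESeq2, 2 iron and heme genes and 1 glutathione gene were positive, and the aldehyde list had 1 negative gene, ALDH2, a mitochondrial aldehyde dehydrogenase, since AKR1C1 and AKR1C3 had no adjusted p there. ALDH2 had -0.51 ± 0.13, and missed the threshold without DMSO replicate 3 (adjusted p = 0.0566), without RSL3 replicate 1 (0.0509) and without RSL3+CLA18:2 replicates 3 and 4 (0.0528).

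Genes of the integrated stress response leaned the same way, with 33 of 36 tested below 0, against 8375 of all 16325 genes. Their median was -0.36. Of these 36 genes 15 passed the test as negative and 1, ATF3, as positive, against 1.80% and 1.75% of all genes. The medians were -0.23 in RSL3+CLA18:2 against CLA18:2 and 0.14 in RSL3 against DMSO. ATF4 itself, the transcription factor of this response, had an interaction of -0.09 ± 0.06 that did not pass (adjusted p = 0.49).

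DDIT4, an inhibitor of mTORC1 signalling, had 9.84, 8.62, 9.62 and 8.15 CPM in RSL3+CLA18:2 libraries, against 14.2, 14.9, 13.3 and 15.8 CPM in CLA18:2 libraries. It had 10.2, 10.3, 9.06 and 9.81 CPM in RSL3 libraries, against 2.84, 3.29, 4.08 and 2.90 CPM in DMSO libraries. Cells given both agents thus held about as much as cells given RSL3, and less than those given CLA18:2. The interaction of DDIT4 was -2.26 ± 0.23 (adjusted p = 5.6e-08).

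DDIT3, the CHOP transcription factor, had 8.0, 8.14, 9.07 and 5.54 CPM in RSL3+CLA18:2 libraries, against 16.2, 13.4, 18.5 and 17.9 CPM in CLA18:2 libraries. It had 4.96 to 5.28 CPM in RSL3 libraries, against 3.42 to 4.30 CPM in DMSO libraries, a difference that did not pass (0.34 ± 0.16). The interaction of DDIT3 was -1.44 ± 0.22 (adjusted p = 1.2e-04). CHAC1, which degrades glutathione and is a marker gene of ferroptosis, had -1.14 ± 0.22, SESN2, a leucine sensor, -0.81 ± 0.09, TRIB3, a pseudokinase, -0.51 ± 0.08 and GDF15, a secreted stress hormone, -0.55 ± 0.09.

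Of 26 tested genes of the ER unfolded protein response, 11 were negative, against 1.80% of all genes, and none positive. The median was -0.19. HSPA5, the ER chaperone BiP, had 1984, 1938, 1945 and 2032 CPM in RSL3+CLA18:2 libraries, against 2663, 2609, 2747 and 2707 CPM in CLA18:2 libraries. It had 1228, 1173, 1171 and 1231 CPM in RSL3 libraries, against 1082, 1092, 1057 and 1041 CPM in DMSO libraries. The replicates lay close together, and the interaction of HSPA5 of -0.61 ± 0.05 had the smallest adjusted p of the genes described here (6.5e-10). HYOU1, a large ER chaperone, had -0.41 ± 0.06 and HERPUD1, an ER degradation factor, -0.50 ± 0.08.

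Cytosolic heat shock genes had 1 member past the test of 20, against 3.55% of all genes tested. This was HSPA6, an HSP70 that is made almost only under stress. It had 4.26, 3.56, 4.49 and 3.74 CPM in RSL3+CLA18:2 libraries, against 6.45, 8.42, 8.83 and 7.84 CPM in CLA18:2 libraries, and 6.25, 6.45, 5.34 and 7.05 CPM in RSL3 libraries, against 2.10, 1.48, 1.5 and 1.23 CPM in DMSO libraries. Each agent alone went with more HSPA6 than cells given both held. The interaction of HSPA6 was -2.96 ± 0.27 (adjusted p = 1.0e-08). HSPA6 has close HSP70 paralogs, and reads could be split between them. DNAJB1, an HSP40 cochaperone, had -0.17 ± 0.07 (adjusted p = 0.17).

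**Figure D3:**
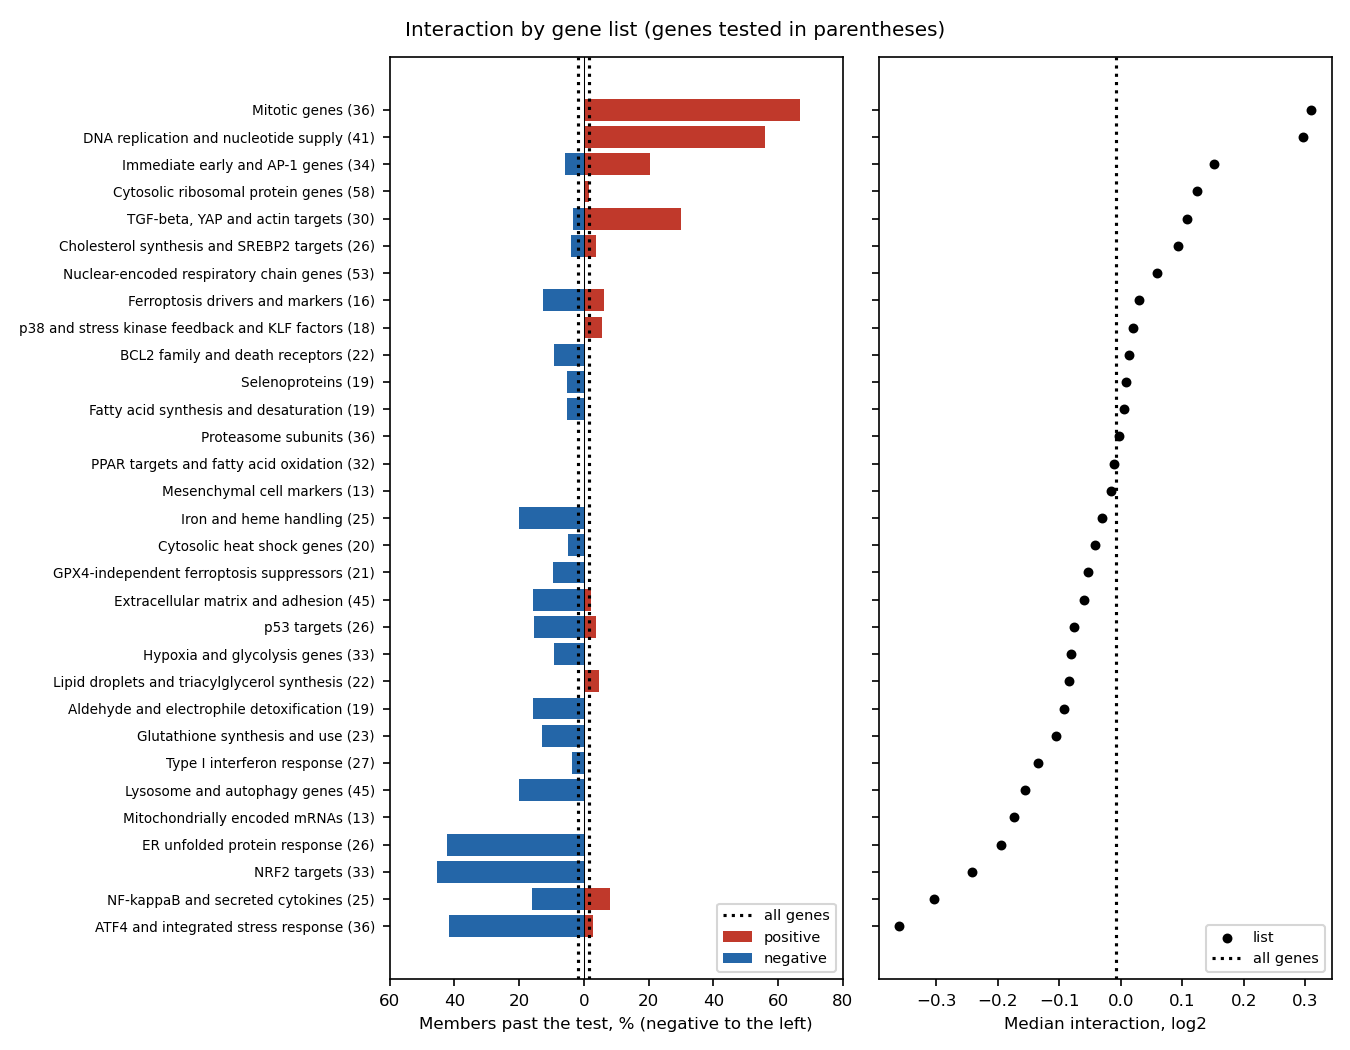
Share of each list's tested genes with a positive (right) or negative (left) interaction, and the list's median log2 interaction, for the lists described here with at least 10 tested genes; dotted lines give the same over all genes tested. Mitotic and DNA replication genes reach furthest to the right, and NRF2, ATF4 and ER unfolded protein response genes to the left.

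Lysosome and autophagy genes had 9 negative members of 45 tested, against 1.80% of all genes, and none positive, with a median of -0.16. Beside SQSTM1 they included NPC1, the lysosomal cholesterol exporter, at -0.58 ± 0.07 and CTSD, the protease cathepsin D, at -0.42 ± 0.07. NPC1 had 158 to 171 CPM in RSL3+CLA18:2 libraries, against 190 to 209 CPM in CLA18:2 libraries, and 107 to 118 CPM in RSL3 libraries, against 85.5 to 92.0 CPM in DMSO libraries. Of 33 hypoxia and glycolysis genes, 3 were negative, against 1.80% of all genes tested. They were DDIT4, NDRG1, a stress-responsive gene, at -1.02 ± 0.11, and SLC2A3, the glucose carrier GLUT3, at -0.60 ± 0.10. The count of 3 became 5 by DESeq2, by voom and with the mitochondrial covariate.

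NF-kappaB and cytokine genes leaned negative, with 19 of 25 tested below 0 and a median of -0.30. Those past the test were split. CXCL8, the chemokine interleukin-8, had 23.3, 21.8, 29.3 and 24.2 CPM in RSL3+CLA18:2 libraries, against 28, 29.1, 31 and 34 CPM in CLA18:2 libraries, and 2.85, 4.64, 3.09 and 4.06 CPM in RSL3 libraries, against 1.63, 1.53, 2.11 and 1.79 CPM in DMSO libraries. The libraries with CLA18:2 overlapped, and the interaction of CXCL8 was -1.36 ± 0.22 (adjusted p = 2.5e-04). NFKB2, an NF-kappaB subunit, had -0.49 ± 0.08, while IL11, a cytokine of the interleukin-6 family, had 0.45 ± 0.08. Among 25 NF-kappaB and cytokine genes 4 were negative and 2 positive, against 1.80% and 1.75% of all genes. The other positive one was NFKBIA, the inhibitor of NF-kappaB, at 0.50 ± 0.11.

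Among 26 p53 targets, 4 were negative and 1 positive, against 1.80% and 1.75% of all genes tested. The negative ones included SESN2, MDM2, the ubiquitin ligase of p53, at -0.36 ± 0.07 and TNFRSF10B, a TRAIL receptor, at -0.24 ± 0.05. CDKN1A, the cell cycle inhibitor p21, was the fourth at -0.24 ± 0.06, and missed the threshold without RSL3+CLA18:2 replicates 3 and 4 (-0.19, adjusted p = 0.0742). PLK2 was the positive one at 0.35 ± 0.09. Extracellular matrix and adhesion genes had 7 negative and 1 positive of 45 tested, beside those same shares over all genes. The count of 7 fell to 3 or 4 when any of 10 libraries was left out and to 3 without RSL3+CLA18:2 replicates 3 and 4. Of these LAMB2, a laminin chain, had -0.34 ± 0.08 and ITGAV, the alpha V integrin, -0.37 ± 0.09, while COL10A1, a collagen, had 0.84 ± 0.19, and 0.73 without those replicates (adjusted p = 0.0509).

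GPX4, the target of RSL3, had no interaction past the test. It had 91.3, 96.8, 72.7 and 74.5 CPM in RSL3+CLA18:2 libraries, against 72.1, 85.4, 81.3 and 84.0 CPM in CLA18:2 libraries, and 86.1, 82.6, 76.5 and 77.5 CPM in RSL3 libraries, against 79.2, 76.8, 84.2 and 83.2 CPM in DMSO libraries. All groups overlapped. The interaction of GPX4 was 0.06 with a 95% interval from -0.15 to 0.26 (adjusted p = 0.87). AIFM2, the ferroptosis suppressor FSP1, had -0.22 ± 0.12 (adjusted p = 0.40), ACSL4, which primes polyunsaturated fatty acids for membranes, 0.05 ± 0.07 (adjusted p = 0.83), TFRC, the transferrin receptor, -0.08 ± 0.06 (adjusted p = 0.61), and PTGS2, a cyclooxygenase used as a ferroptosis marker, -0.37 ± 0.20 (adjusted p = 0.41). MT2A, a metallothionein, had -0.05 ± 0.08 (adjusted p = 0.87).

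CPT1A, SCD and HMGCS1, of lipid metabolism, had no interaction past the test. CPT1A, the gate of mitochondrial fatty acid oxidation, had 54.4, 57.2, 56.9 and 56.9 CPM in RSL3+CLA18:2 libraries, against 58.5, 53.6, 54.2 and 58.8 CPM in CLA18:2 libraries, and 7.70 to 10.1 CPM in RSL3 libraries, against 8.48 to 11.3 CPM in DMSO libraries. Its interaction was 0.11 ± 0.13 (adjusted p = 0.77). SCD, the stearoyl-CoA desaturase, had 144 to 154 CPM in RSL3+CLA18:2 libraries, against 136 to 144 CPM in CLA18:2 libraries, and 0.14 ± 0.06 as its interaction (adjusted p = 0.26). HMGCS1 of cholesterol synthesis had 0.09 ± 0.07 (adjusted p = 0.63).

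No member passed among 32 PPAR target and fatty acid oxidation genes, 36 proteasome subunits, 53 nuclear-encoded respiratory chain genes or 13 mitochondrially encoded mRNAs, with medians of -0.01, -0.00, 0.06 and -0.17. The last list had 11 of 13 genes below 0 while the mitochondrial share itself spread widely within groups. Cytosolic ribosomal protein genes had 1 positive of 58, RPL11, yet 57 of the 58 lay above 0, with a median of 0.12. Cholesterol synthesis genes had 1 positive, FDPS, and 1 negative, SREBF2, of 26. The shares over all genes tested were 1.75% positive and 1.80% negative.

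The other lists described here held few genes past the test, named here for that reason. Over all genes tested, 1.75% passed as positive and 1.80% as negative. Among 16 ferroptosis drivers and markers, CHAC1 and CYB5R1, a reductase, at -0.40 ± 0.11, were negative and VDAC2, a mitochondrial channel, was positive at 0.18 ± 0.05. CYB5R1 missed the threshold in 8 and VDAC2 in 9 of the 16 fits without 1 library, and both without RSL3+CLA18:2 replicates 3 and 4 (adjusted p = 0.204 and 0.0991). Among 21 GPX4-independent suppressors AKR1C1 and AKR1C3 were negative. Single negative genes were TXNRD1 of 19 selenoproteins, ME1, a source of NADPH, of 19 fatty acid synthesis genes, and IFI44 of 27 interferon genes, and both negative genes of 22 in the BCL2 and death receptor list were the receptors TNFRSF10B and TNFRSF1A. Single positive genes were DGAT1, which makes triacylglycerol, of 22 lipid droplet and triacylglycerol genes, and DUSP1, a phosphatase of stress kinases, of 18 stress kinase feedback and KLF genes. None passed of 7 metallothionein and zinc transporter genes, 9 nuclear-retained noncoding RNAs or 13 mesenchymal markers. All 7 metallothionein and zinc transporter genes lay below 0, with a median of -0.27. Of these 7, 2 were negative by DESeq2, by voom and with only the 16 libraries.

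Some of the largest interactions rested on few or uneven counts. GGNBP2, with the largest positive value at 4.23 ± 1.2, had 1.09, 0.970, 0.458 and 10.5 CPM in RSL3+CLA18:2 libraries, against 1.0, 1.18, 1.16 and 1.04 CPM in CLA18:2 libraries, and 1.70, 0.510, 0.942 and 0.596 CPM in RSL3 libraries, against 11.7, 0.740, 10.0 and 0.614 CPM in DMSO libraries. Its high values were in 1 library with both agents and 2 with vehicle, and it missed the threshold in 10 of the 16 fits without 1 library, among them 2.24 (adjusted p = 0.32) without RSL3+CLA18:2 replicate 4, and by voom (2.32, adjusted p = 0.482). TLL1, a metalloprotease, had 1.5 ± 0.41 and missed it in 10. PXMP2, a peroxisomal membrane channel, had 1.13 ± 0.29 and missed it in 3, TAF10, a TFIID subunit, 0.89 ± 0.24 and missed it in 5, and the locus listed as ENSG00000289579 1.04 ± 0.28 and missed it in 6. Without RSL3+CLA18:2 replicates 3 and 4, GGNBP2, TLL1, PXMP2 and ENSG00000289579 missed it, at 2.56, 0.80, 1.05 and 0.91. DESeq2 gave GGNBP2, TLL1 and PXMP2 no adjusted p.

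Among the most negative genes, GCNT3, which builds mucin-type glycans, had 10.8, 12.9, 14.6 and 13.1 CPM in RSL3+CLA18:2 libraries, against 23.8, 19.1, 20.7 and 20.9 CPM in CLA18:2 libraries, and 0.849, 0.789, 0.419 and 0.542 CPM in RSL3 libraries, against 0.210, 0.231, 0.086 and 0.0558 CPM in DMSO libraries. Its interaction was -2.82 ± 0.43 (adjusted p = 1.3e-04), with a rough fold over the small DMSO counts. The ribosomal protein pseudogene RPLP0P2 had -1.45 ± 0.32, and -1.15 without RSL3+CLA18:2 replicates 3 and 4 (adjusted p = 0.0529). LCTL, a klotho relative, had -1.26 ± 0.29. DESeq2 gave neither an adjusted p. Reads of RPLP0P2 cannot be told apart with certainty from those of its parent gene.

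RSL3 had opposite effects in the 2 settings for a small set of genes. Of 22 genes past the test in both RSL3 responses, 11 differed in sign, all 11 with an interaction past the test: HSPA6, NMRAL2P, SLC7A11, SQSTM1, NDRG1, HSPA5, AKR1C1, DDIT4, GCNT3, NPC1 and FTL. All 11 were lower in RSL3+CLA18:2 than in CLA18:2, and higher in RSL3 than in DMSO. Of the 33 genes that RSL3 changed in vehicle, 17 had a negative interaction and 4 a positive one, FOS, FOSB, ATF3 and COL10A1. Over all genes tested the shares were 1.80% and 1.75%. The choice of these 33 uses the RSL3 and DMSO libraries that also enter the interaction. Among them 29 were higher in RSL3, a response that the interaction subtracts, so the choice itself favours negative values. The split is thus only a description.

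A negative log2 interaction can arise where 2 agents only add, and the CPM scale shows which genes fell below the sum. All 286 positive genes lay above the sum of the single changes, and 293 of the 294 negative genes lay below it, HMOX1 being the other one. These genes were chosen by the sign of their interaction in the same libraries. Their median log2 fold changes in RSL3 against DMSO were 0.00 and 0.11, so sum and product mostly lay close. The sign of the departure was thus largely set by that choice. FOS at a mean of 62.4 CPM lay above a sum of 6.67 CPM and a product of 24.3 CPM, and FOSB at 38.6 CPM above 7.59 and 9.35 CPM. HSPA5 at 1975 CPM lay below a sum of 2815 CPM, with a departure of -840 ± 41.9 CPM (SE). DDIT4 at 9.06 CPM lay below a sum of 21.1 CPM and a product of 43.7 CPM. These departures are descriptions with no test.

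**Figure D4:**
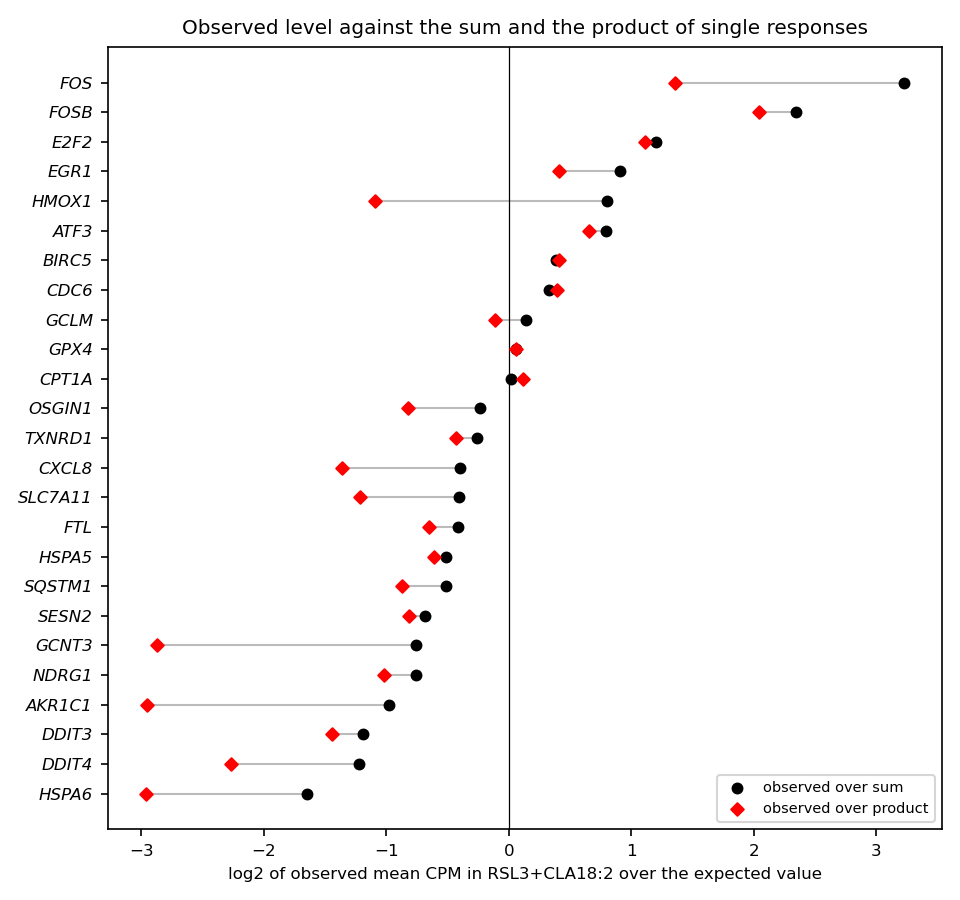
Log2 ratio of the mean CPM observed in RSL3+CLA18:2 to the level expected if the single changes add (black circles) or if their folds multiply (red diamonds), for 25 genes. Points right of 0 are above the expected level: HMOX1 is above the sum and below the product, and GCLM likewise, while FOS, FOSB and E2F2 are above both and HSPA6, DDIT4 and DDIT3 below both.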

How the data were processed

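RNA of HT-1080 cells was sequenced in 28 libraries, of which the 16 of the 2 by 2 enter the interaction. The authors deposited raw gene counts, 1 column per library, and per the submitters' processing notes they used HISAT, SAMtools, featureCounts and DESeq2 with hg38. Versions, annotation and strand setting are not given in the sources used here, so overlapping and antisense genes cannot be told apart. Totals in the 16 libraries ran from 16226270 to 23075684 counts.

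Low counts were removed by filterByExpr given the 7 groups, so that 16325 of 60286 genes remained, with 99.9% of counts. After TMM scaling (trimmed mean of M values), edgeR 4.0.16 in R 4.3.3 fitted a mean for each group to all 28 libraries. Its quasi-likelihood F test gave p-values, adjusted after Benjamini and Hochberg over all genes tested and called at 0.05. A log2 value over the square root of its F statistic gives the SE, and intervals are at 95%. CPM are counts relative to the TMM-scaled library total. The sum expected in RSL3+CLA18:2 is CLA18:2 plus RSL3 minus DMSO, and the product is CLA18:2 times RSL3 over DMSO, on group mean CPM.

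The comparison, the genes and the 37 lists were chosen with earlier results of these data known. Named genes are 34 fixed genes, the 10 largest interactions each way past the test with a mean of at least 2 CPM, and the 3 smallest p of each list with 3 or more genes past the test, 75 in all. Others are named where few genes make up a count, and were chosen after their values were seen, as were the 33 genes examined for libraries that stand apart. Positions and promoters are from GENCODE release 29 and RefSeq on GRCh38, and 73 of 75 genes matched a position.

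Alternatives were RLE scaling, no filter, DESeq2 1.42.0, voom in limma 3.58.1 with group weights, only the 16 libraries, a replicate block, and leaving out each library. Leaving out RSL3+CLA18:2 replicates 3 and 4, and the mitochondrial covariate, were chosen after seeing the data. Results for 1 gene and its list are not reported here. Replicate numbers are not stated to mark pairs and were not used as such. Figures were drawn with matplotlib 3.10.9 in Python 3.11.15.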

Additional observations from a re-analysis of the deposited data

Results flagged for a closer look

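Both counts of the interaction are differences between groups by the test of the difference itself, 286 genes with a positive and 294 with a negative value. In 140 groups of 4 libraries, for 33 genes and the library measures, 12 held a library whose gap to the nearest other was more of the group's range than Dixon's critical value allows. Chance alone flags about 1 in 20 groups.

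Mitochondrially encoded mRNA took 1.68% of counts in RSL3+CLA18:2 replicate 3, far above the other libraries of its group, and 0.548% in RSL3 replicate 4, below its group. In RSL3+CLA18:2, FTL was lowest in replicate 3 at 1569 CPM, CPT1A lowest in replicate 1 at 54.4 CPM, HMGCS1 highest in replicate 1 at 88.1 CPM and GGNBP2 highest in replicate 4 at 10.5 CPM. In CLA18:2, FTL was highest in replicate 1 at 2182 CPM and PXMP2 lowest in replicate 3 at 1.90 CPM. RSL3 replicate 4 was highest for HMOX1 at 156 CPM and for CHAC1 at 5.75 CPM. In DMSO, NMRAL2P was lowest in replicate 3 at 0.516 CPM and RRM2 highest in replicate 4 at 543 CPM. The interactions of FTL, HMOX1, CHAC1, NMRAL2P and RRM2 passed the test in each of the 16 fits without 1 library.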

How the results depend on the processing

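Positive and negative genes numbered 283 and 305 with RLE scaling, 256 and 334 with no filter, 371 and 430 by voom, and 324 and 336 with only the 16 libraries. DESeq2 gave 416 and 461, of which 281 and 282 were among the 286 and 294. Leaving out 1 library gave 191 to 307 positive and 193 to 365 negative genes, with 193 without CLA18:2 replicate 1. With a replicate block the counts were 282 and 298, and 1 named gene, GGNBP2, then missed the threshold (3.98, adjusted p = 0.0577). The residuals of same-numbered libraries correlated at -0.272 to 0.223. RSL3+CLA18:2 against CLA18:2 gave 1825 genes with no filter, 2246 by DESeq2, 1553 by voom and 1483 to 1969 with 1 library left out. RSL3 against DMSO gave 112 genes with no filter, 67 by DESeq2, 147 by voom and 23 to 38 with 1 library left out. No named gene past the test changed sign. Without RSL3+CLA18:2 replicates 3 and 4, 12 named genes missed the threshold. DESeq2 gave no adjusted p for 7 named genes past the test, which have no DESeq2 comparison here. Of those not past it, GPX4 was -0.0201 without RSL3+CLA18:2 replicate 2 (-0.0201 to 0.122 with 1 library left out), ACSL4 -0.00212 without RSL3+CLA18:2 replicate 4 (-0.00212 to 0.0858) and -0.0162 without replicates 3 and 4, and MT2A 0.0294 without CLA18:2 replicate 1 (-0.0861 to 0.0294). The cause of these shifts was not tested. Small counts limit FOS, GCNT3, AKR1C1 and TLL1, and 4 libraries per group limit all values.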
